A study of Homo sapiens with 7 samples.

Results

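Contacts within chromosome arms at separations of 10 to 50 Mb were followed over the autosomal arms in 7 Hi-C libraries of DLD-1, a long-established human line from a colorectal adenocarcinoma. Hi-C joins DNA pieces that lie close together in the nucleus, and each joined pair counts as 1 contact between 2 positions. The members were all arms of chromosomes 1 to 22 with bin pairs that far apart. Of 44 autosomal arms, 39 had values. The short arms 13p, 14p, 15p, 21p and 22p had no usable bin pair in the window. The arms spanned 18.15 Mb (18p) to 149.05 Mb (2q), with 2 under 25 Mb, 12 of 25 to 50 Mb and 25 of at least 50 Mb. An arm shorter than 50 Mb fills only the lower part of the window.

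All 7 libraries came from cells in which the DNA methyltransferase DNMT1 carries an auxin-inducible degron (DNMT1-AID), a tag through which the plant hormone auxin causes the protein to be degraded. Auxin was indole-3-acetic acid at 500 nM. The DNMT3B knockout cells (DNMT3b -/- in the labels, on the DNMT1-AID background) were sampled without auxin and on auxin for 4 d or 10 d. The DNMT1-AID cells were sampled at the same 3 times and once more after 4 d on auxin and a further 4 d of washout. The untreated knockout library bears the knockout in its title, while its genotype label names DNMT1-AID alone, and it was grouped by its title. No library came from cells without the degron, so auxin itself and loss of DNMT1 cannot be told apart. Loss of DNMT3B and other differences between the lines cannot be told apart either. With a single library in each group, no single comparison of 2 libraries has a replicate check or a test. Only the line difference over the 3 shared times was tested, as 3 pairs. SDs over arms describe how arms of these libraries differ.

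DNMT1 copies methylation onto newly made DNA, and DNMT3B adds methylation to unmethylated DNA. Within an arm, contact falls as separation grows. Beyond a few megabases much of it pairs stretches of the same compartment, gene-rich active chromatin (A) with A and gene-poor, often methylated or heterochromatic stretches (B) with B. Methylation loss in cancer cells is known to concentrate in late-replicating, gene-poor blocks.

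The libraries held between 27345260 contacts (washout) and 222645438 (4 d of auxin, DNMT1-AID), counted here and below without those closer than 100 kb. The lowest count of any arm in the window was 1157 (18p in the washout library). Raw counts behind the pooled share of a library ran from 2960419 to 21570273, and the widest 95% exact binomial interval of that share was 15.2163% to 15.2483% (washout), which covers counting error only. Chromosome 8 had 1.42-fold, 1.43-fold and 1.43-fold the contact coverage in knockout over DNMT1-AID cells at the 3 shared times, while the other chromosomes lay between 0.953-fold and 1.04-fold. Its arms are therefore given only as shares of their own contacts or as balanced values.

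The long-range share of an arm is its raw contacts at 10 to 50 Mb over all its contacts from 100 kb on. In the knockout cells the median arm had a share of 10.6% untreated, 10.8% at 4 d and 12.3% at 10 d of auxin. In the DNMT1-AID cells it was 12.6% untreated, 11.4% after 4 d, 13.2% after 10 d and 13.1% after washout. The lowest of the 7 medians was thus that of untreated knockout cells, and the lowest in the DNMT1-AID line was that at 4 d.

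**Figure D1:**
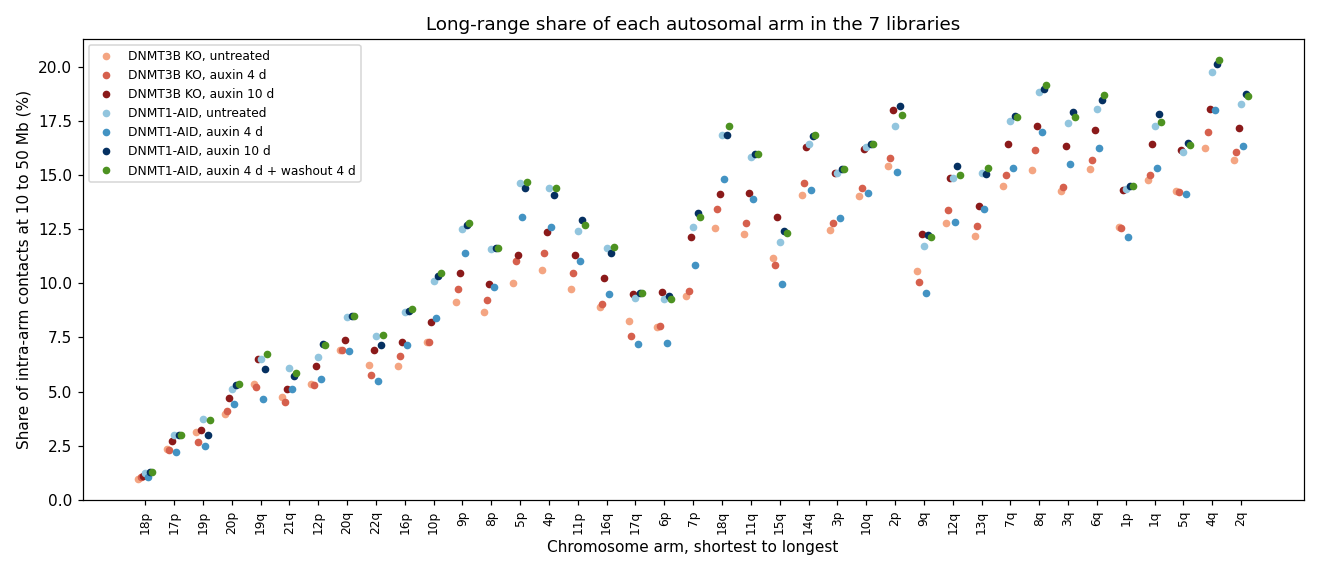
Share of intra-arm contacts at 10 to 50 Mb (percent) for each of 39 autosomal arms, ordered from the shortest (18p) to the longest (2q), with 1 point per library. Shares climb with arm length, and the DNMT1-AID library at 4 d lies below the untreated one on every arm.

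The level followed arm length. Over the 39 arms the share followed length with Spearman's rho between 0.88 and 0.94 in the 7 libraries, since a longer arm has more bin pairs in the window. The shortest arm, 18p, had 0.947%, 1.06% and 1.09% in knockout cells untreated, at 4 d and at 10 d. In DNMT1-AID cells 18p had 1.24%, 1.04% and 1.30% at these times and 1.29% after washout. The longest arm, 2q, had 15.7%, 16.1% and 17.2% in knockout cells, and 18.3%, 16.3%, 18.8% and, after washout, 18.7% in DNMT1-AID cells. Long, gene-poor 4q stood highest of all arms in the untreated libraries, at 16.3% in knockout and 19.7% in DNMT1-AID cells. Chromosome 1p, one of the longest arms, with 9.34 protein-coding genes per valid Mb, had 12.6% in knockout and 14.4% in DNMT1-AID cells. The arm 1q, of similar length and with 10.1 genes per Mb, had 14.7% and 17.3%. The gene-dense 17q, with 16.9 genes per Mb, had 8.24% and 9.30%.

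At matched separation the arms no longer followed length. Balanced contact is the authors' matrix-balanced value, in which each bin has the same total in every library. A larger part of that total between chromosomes leaves less within chromosomes as a whole, though not at every separation. Divided by the value of all arms at the same separations, it ranged over arms from 0.644 to 1.51 and had a rho with length between -0.18 and 0.093 in the 7 libraries. It was highest on 18p in 6 libraries and on 5p in the DNMT1-AID library at 4 d. It was lowest on 17q in 6 libraries and on 19p in the DNMT1-AID library at 10 d (0.686). The arms 18p, 5p and 9p were the highest 3 in each library except untreated DNMT1-AID cells, where 16p (1.39) stood in the place of 9p. More genes per Mb went with less long-range contact, with rho between -0.64 (DNMT1-AID at 4 d) and -0.45 (untreated DNMT1-AID). The arm 16p was an exception, gene-dense at 18.9 genes per Mb yet between 1.14 and 1.39 in the 7 libraries. These relations are over arms of the same library, which share its depth and balancing, and are descriptions without a test.

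The first comparison asked how long-range contact differed after 4 d of auxin in DNMT1-AID cells. Every arm had a smaller long-range share, by a median log2 ratio of -0.21 (SD over arms 0.10), and the gene-dense arms differed most. A value past 0.1 on the log2 scale, 1.07-fold, was counted as lower or higher. All 39 arms were lower and 0 were higher, where 45.2% and 0% of the 135 values of the arms at 0.1 to 1, 1 to 10, 10 to 50 and over 50 Mb were. The median was -0.12 with the share taken over contacts from 1 Mb on. The 95% counting intervals of both libraries lay apart on all 39 arms. That is common at these depths. At 10 d over untreated they lay apart on 32 of 39, where the direction of the median is not settled.

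Chromosome 19 is the most gene-dense human autosome. Its short arm 19p (positions 1 to 25850000 on hg38, 648 protein-coding genes) had 2.49% of its contacts in the window at 4 d, against 3.75% untreated, a log2 ratio of -0.59. The 95% intervals were 2.46% to 2.52% and 3.70% to 3.80%. Its long arm 19q (25850001 to 58650000, 803 genes) had 4.64% against 6.48% (log2 ratio -0.48). The arm 22q, also gene-rich, had 5.51% against 7.57% (-0.46). At the other end stood 4q with 17.9997% against 19.7% (-0.13), 9p with 11.4% against 12.5% (-0.13) and 8q with 16.97% against 18.8% (-0.15). These arms had 3.87, 5.65 and 4.39 genes per Mb. The long, gene-poor 13q had 13.4% at 4 d against 15.1% untreated, and 1p had 12.1% against 14.4%.

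The 39 arms were split into 3 classes of 13 by gene density. The median log2 ratio was -0.30 in the gene-dense class, -0.21 in the middle and -0.17 in the gene-poor class. By list, the 9 arms of the small, gene-rich chromosomes 16, 17, 19, 20 and 22 had a median of -0.37, and the 7 arms of the gene-poor chromosomes 4, 5, 13 and 18 had -0.18. The 5 measured long arms of the acrocentrics (13, 14, 15, 21 and 22), whose short arms hold the ribosomal DNA, had -0.25. Over the 39 arms the ratio went with gene density at a rho of -0.71 (Pearson's r -0.87) and with arm length at 0.64, while length and density were themselves related at -0.38. In the 25 arms of at least 50 Mb the rho with density was -0.64.

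The authors also deposited a clustering of 50 kb bins of the untreated DNMT1-AID library, with clusters that they named B2/B3 and A1 among others. Over the 38 arms with clustered bins, the share of an arm in B2/B3 went with its log2 ratio at a rho of 0.82, and its share in A1 at -0.75. Of the clustered length, 1.84% was B2/B3 on 19p and 65.3% on 5p. Gene density and the B2/B3 share were related at -0.71, so the parts of each were not separated. The clusters were made from the untreated library of this comparison itself.

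**Figure D2:**
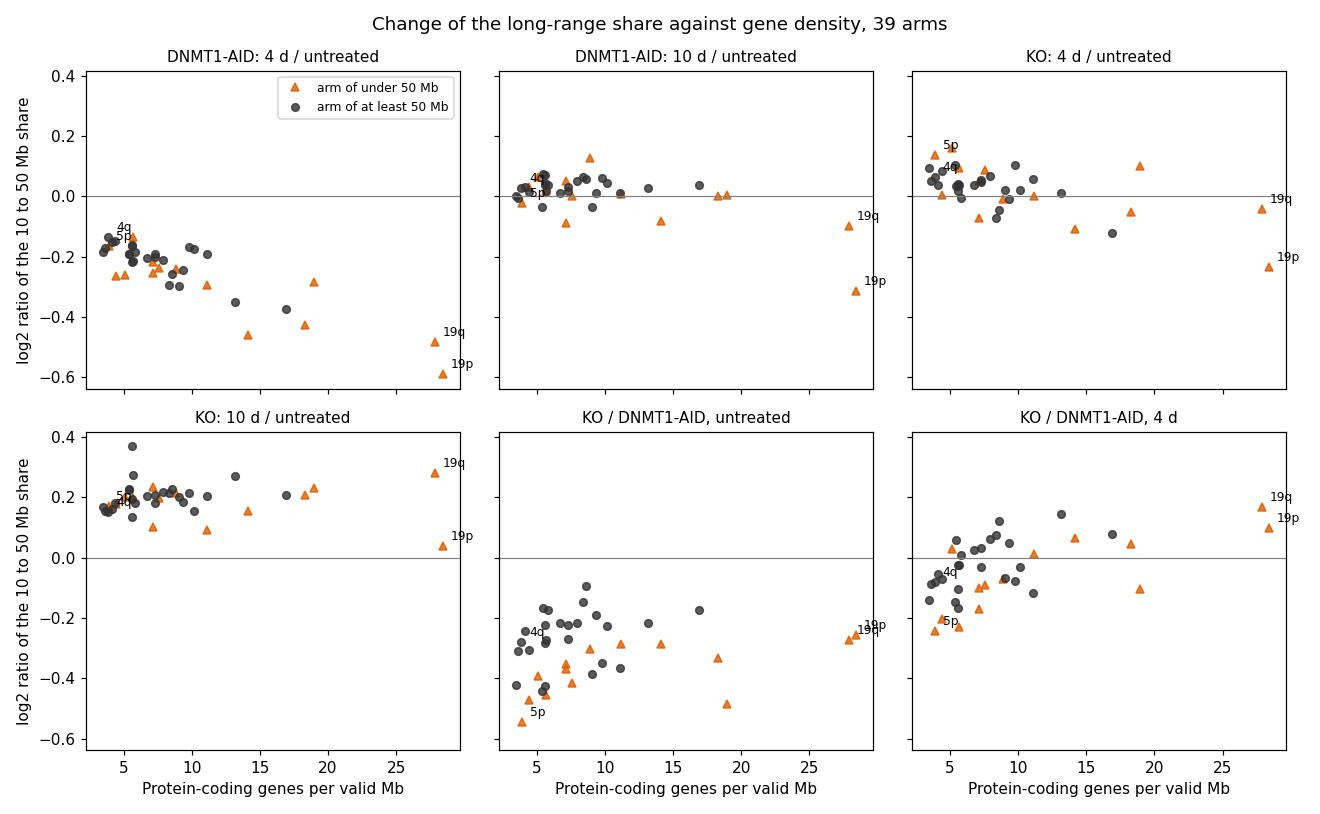
Log2 ratio of the long-range share (vertical) against protein-coding genes per valid Mb (horizontal) for 39 arms in 6 comparisons, with triangles for arms under 50 Mb and circles for longer ones. At 4 d in DNMT1-AID cells the points slope down to 19p at -0.59, while knockout over DNMT1-AID cells without auxin shows 5p lowest at -0.55.

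The difference at 4 d grew with separation. On the 23 arms with at least 1000 counts in each 10 Mb step in every library, the median log2 ratio of the share was -0.12 at 10 to 20, -0.22 at 20 to 30, -0.28 at 30 to 40 and -0.33 at 40 to 50 Mb. All 23 arms lay below 0 in every step, with 4q highest in each. In the pooled profile of arms of at least 50 Mb, balanced contact had a log2 ratio of -0.046 in the first 2.5 Mb of the window and -0.31 in the last. Over 50 Mb, on 18 arms, the median was -0.28, while contacts at 0.1 to 1 Mb had a median of 0.060. Balanced contact in the window was lower on 39 of 39 arms (median -0.19, SD 0.092), where 43% of all values were lower and 5.93% higher, and its median was -0.12 over 10 to 20 Mb. On logarithmic axes, the slope of balanced contact against separation across the window was -1.07 at 4 d against -0.947 untreated. It was steeper in 24 of 25 long arms. Arms of a library share its depth and balancing. Counts of arms by step or by slope, here and below, are therefore a description and no support. No share over all separations was computed for them.

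After 10 d of auxin the DNMT1-AID cells no longer showed a smaller share. The median log2 ratio to untreated cells was 0.019 (SD 0.069), with 1 arm higher and 1 lower past 0.1, where 14.1% and 0.741% of all values were higher and lower. The median was 0.051 over 20 to 50 Mb, and counting the share over contacts from 1 Mb on put it at -0.00049, so its direction is not settled. The lower arm was 19p, with 3.02% at 10 d against 3.75% untreated (-0.31). Next lowest were 19q (6.06% against 6.48%, -0.098) and 21q (5.72% against 6.09%, -0.089). The higher arm was 12p, with 7.19% against 6.58% (0.13), followed by 2p (0.074) and 7p (0.071). Contact coverage of chromosome 19 was 1.07-fold that of the untreated library, the highest of any chromosome. Its part in the values of 19p and 19q was not tested.

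Set against the library at 4 d, all 39 arms were higher at 10 d, with a median log2 ratio of 0.24 (SD 0.078), where 43% of all values were higher. The arms 17p (2.99% at 10 d against 2.22% at 4 d, 0.43), 17q (9.55% against 7.18%, 0.41) and 19q (6.06% against 4.64%, 0.39) stood highest. Lowest were 5p (0.14), 9p (0.15) and 4p (0.16). The median was 0.32 in the window from 20 to 50 Mb and 0.13 with the share taken over contacts from 1 Mb on. Balanced contact was higher on 20 of 39 arms and lower on 0, where 28.1% and 40.7% of all values were, with a median of 0.10. It was 0.036 over 10 to 20 Mb, 0.19 over 20 to 50 Mb, 0.17 with every separation weighted equally and 0.22 after division by the arm's balanced total. The rho of the share ratio with gene density was 0.66, and with the B2/B3 share -0.91. These values share the library at 4 d with the comparison above.

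At 10 d the change also differed by separation. On the same 23 arms, the ratio to untreated cells had a median of 0.023 at 10 to 20, 0.020 at 20 to 30, 0.046 at 30 to 40 and 0.12 at 40 to 50 Mb, and over 50 Mb it was 0.37 on 18 arms, all of them past 0.1. Balanced contact in the window was lower instead, with a median of -0.089 (SD 0.084) and 15 of 39 arms past -0.1, where 48.1% of all values were lower. It was -0.049 with every separation weighted equally and 0.0072 after division by each arm's balanced total. The share of contacts between chromosomes was 26.2% in this library against 21.4% untreated. Balanced 19p had 122 contacts per 1000000 bin pairs at 10 d, against 170 untreated.

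The washout library asks where contacts stood 4 d after auxin was removed. It lay close to untreated cells, with a median log2 ratio of 0.023 (SD 0.028) and only 12p past 0.1 (7.15% against 6.58%, 0.12), where 13.3% of all values were higher and 0% lower. The counting intervals overlapped on 12 of 39 arms. The washout library had fewer contacts (27345260 against 114710963 untreated), which widens its intervals, so the overlap is no measure of closeness. The arm 19p had 3.68% after washout against 3.75% untreated (-0.028), 21q had 5.88% against 6.09% (-0.050), and 19q had 6.75% against 6.48% (0.059). Against the 4 d library all 39 arms were higher (median 0.23, SD 0.10, where 43% of all values were), led by 19p with 3.68% against 2.49% (0.56), 19q (0.54) and 22q (0.47). The lowest were 9p, 5p and 8q (0.17 each). With the share taken over contacts from 1 Mb on, the median over the 4 d library was 0.14. Balanced contact was also higher than at 4 d on 39 of 39 arms (median 0.17, and 0.093 over 10 to 20 Mb), where 42.2% of all values were higher and 28.9% lower. Over 20 to 50 Mb the median ratio to untreated cells was 0.054, and in the 4 steps it was 0.0035, 0.034, 0.045 and 0.081. Balanced contact in the window had a median of -0.017 against untreated cells, with 2 of 39 arms lower and 0 higher, where 5.19% and 8.89% of all values were. It was 0.0037 over 20 to 50 Mb and 0.020 after division by the arm's balanced total, so its direction is not settled.

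**Figure D3:**
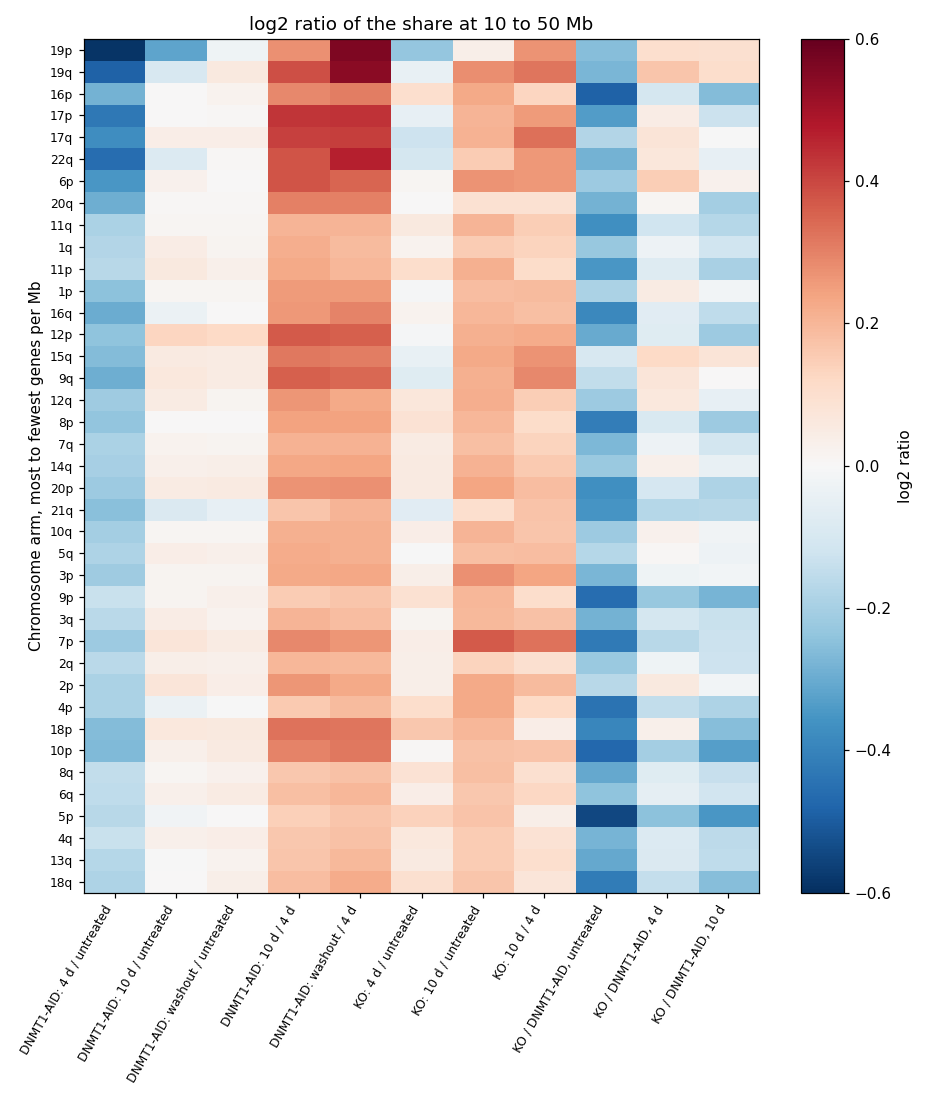
Log2 ratio of the share at 10 to 50 Mb for 39 arms (rows, from most to fewest genes per valid Mb) in the 11 comparisons (columns), with red for higher and blue for lower. The first column is blue on every arm and darkest on 19p (-0.59), and the untreated knockout column is blue on every arm and darkest on 5p (-0.55).

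In knockout cells the long-range share differed little after 4 d of auxin over the window as a whole, and more at its far end. The median log2 ratio to untreated knockout cells was 0.037 (SD 0.076), with 4 arms higher and 3 lower past 0.1, where 15.6% and 3.7% of all values were. The lower arms were gene-rich: 19p had 2.67% at 4 d against 3.14% untreated (-0.23), 17q 7.57% against 8.24% (-0.12) and 22q 5.77% against 6.21% (-0.11). The highest were 18p with 1.06% against 0.947% (0.16), 5p with 11.03% against 10.03% (0.14) and 4p (0.11). The rho with gene density was -0.52 and with the B2/B3 share 0.60. Coverage of chromosome 19 was 0.926-fold, the lowest of all autosomes, and its part was not tested. In the 4 steps from 10 to 20 up to 40 to 50 Mb, the 23 arms had medians of 0.014, 0.022, 0.063 and 0.13. Of these arms, 14, 16, 21 and 22 lay above 0. The median share ratio was 0.057 over 20 to 50 Mb and 0.011 over 10 to 20 Mb. Balanced contact had a median of 0.054 (0.082 and 0.024 in these windows), with 8 arms higher and 1 lower, where 18.5% and 1.48% of all values were.

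After 10 d the knockout cells had larger long-range shares on nearly all arms. The median log2 ratio to untreated knockout cells was 0.20 (SD 0.055), and 37 of 39 arms were past 0.1, where 55.6% of all values were higher. The median was 0.30 over 20 to 50 Mb, 0.11 over 10 to 20 Mb and 0.050 with the share taken over contacts from 1 Mb on. The arms 7p (12.1% against 9.39%, 0.37), 19q (6.51% against 5.36%, 0.28) and 3p (15.1% against 12.5%, 0.27) stood highest. The lowest were 19p (3.22% against 3.14%, 0.037), 20q (0.092) and 21q (0.10). The 2 arms of chromosome 19 thus lay near opposite ends. The arm 19p had 27217 valid bin pairs in the window at 10 d against 32881 untreated, and the part of this was not tested. Gene density had a rho of 0.24. Arm length had -0.18 over all arms and -0.67 over the 25 longest, where the longer arms lay lower.

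Against the knockout library at 4 d, the library at 10 d had a median log2 ratio of 0.17 (SD 0.079), with 32 of 39 arms higher and 0 lower, where 58.5% and 9.63% of all values were. The median was 0.10 over 10 to 20 Mb and 0.012 with the share taken over contacts from 1 Mb on. The highest arms were 17q (9.52% at 10 d against 7.57% at 4 d, 0.33), 7p (0.33) and 19q (0.32), and the lowest were 5p (0.034), 18p (0.041) and 18q (0.073). Coverage of chromosome 19 was 1.16-fold in this comparison. Balanced contact was higher on 9 arms and lower on 3, where 20% and 31.1% of all values were. Its median of 0.036 was -0.018 over 10 to 20 Mb, 0.10 over 20 to 50 Mb and 0.15 after division by the arm's balanced total, so its direction is not settled.

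The gain in knockout cells at 10 d was largest at the far end of the window. On the 23 arms the ratio to untreated knockout cells had medians of 0.096, 0.18, 0.31 and 0.48 in the 4 steps from 10 to 20 up to 40 to 50 Mb, above 0 on all 23 arms in each. It was 0.76 over 50 Mb. Contacts at 1 to 10 Mb had 0.10 and those at 0.1 to 1 Mb -0.086. The slope over the window was -0.712 at 10 d, the shallowest of the 7, against -0.893 untreated, and none of the 25 long arms was steeper. Balanced contact over the whole window had a median of only 0.087 (SD 0.061), with 15 of 39 arms higher and 0 lower, where 24.4% and 28.9% of all values were. It was 0.16 with every separation weighted equally, 0.18 over 20 to 50 Mb, 0.010 over 10 to 20 Mb and 0.19 after division by the arm's balanced total. The trans share was 29.2% at 10 d against 25.2% untreated.

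**Figure D4:**
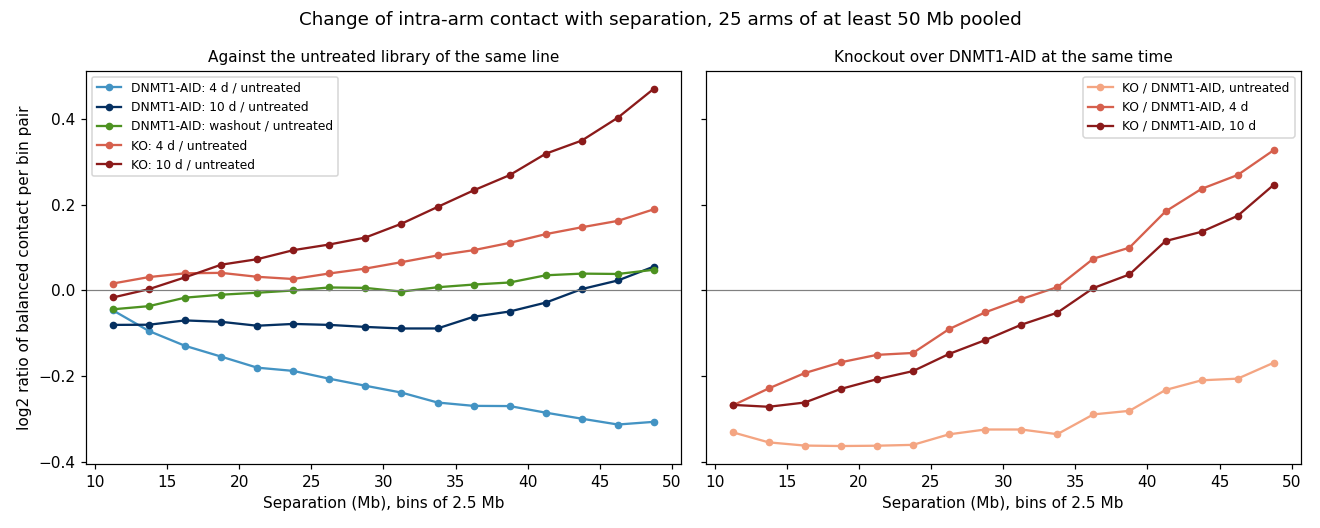
Log2 ratio of balanced contact per bin pair (vertical) against separation in Mb (horizontal) in bins of 2.5 Mb, pooled over the 25 arms of at least 50 Mb, for each library over the untreated one of its line (left) and for knockout over DNMT1-AID cells at each time (right). The DNMT1-AID library at 4 d falls away to -0.31 at the far end, the knockout library at 10 d climbs to 0.47, and knockout over DNMT1-AID at 4 d crosses 0 near 33.75 Mb.

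Without auxin, knockout cells had smaller long-range shares than DNMT1-AID cells on all 39 arms. The median log2 ratio was -0.29 (SD 0.10), and 38 arms were past -0.1, where 34.1% of all values were lower. Counting intervals lay apart on all 39 arms, but also on 36 of 39 in the comparison at 4 d below. The arm 5p, poor in genes, had 10.0% in knockout against 14.6% in DNMT1-AID cells (-0.55). Next came 16p with 6.20% against 8.69% (-0.49) and 10p with 7.27% against 10.1% (-0.47). Least different were 15q with 11.17% against 11.9% (-0.094), 9q with 10.6% against 11.7% (-0.15) and 2p (-0.17). On 19p the shares were 3.14% and 3.75% (-0.26), near the median.

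Shorter arms differed more. Arms under 25 Mb and of 25 to 50 Mb both had medians of -0.36, and arms of at least 50 Mb had -0.24. The rho with length was 0.53 (0.33 over the long arms) and with gene density 0.24, and the gene-dense, middle and gene-poor classes had medians of -0.29, -0.27 and -0.31. With the share taken over contacts from 1 Mb on, the median was -0.18. Balanced contact was lower on 39 of 39 arms (median -0.38, SD 0.12), where 51.9% of all values were lower. The arm 16p was lowest at 147 against 232 per 1000000 bin pairs, and 15q was highest at 83.8 against 94.7. The 16p values rest on unlike sets of bins, with 68326 valid bin pairs in knockout and 62350 in DNMT1-AID cells. The arms of chromosome 8, whose coverage differed between the lines, had 8.70% against 11.6% (8p) and 15.2% against 18.8% (8q), and 124 against 187 and 100 against 136 balanced contacts per 1000000 bin pairs. At other separations the median share ratio was 0.094 over 50 Mb, -0.057 at 1 to 10 Mb and 0.078 at 0.1 to 1 Mb.

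At 4 d of auxin both lines were closer in the window as a whole. The median log2 ratio of knockout over DNMT1-AID cells was -0.032 (SD 0.10), with 3 arms higher and 11 lower, where 15.6% and 13.3% of all values were. It was 0.0034 with contacts from 1 Mb on, 0.039 over 20 to 50 Mb, -0.071 over 10 to 40 Mb and -0.053 without chromosome 19, so its direction is not settled. The lowest arms were 5p (11.03% against 13.1%, -0.24), 9p (9.72% against 11.4%, -0.23) and 10p (7.30% against 8.41%, -0.20). The highest were 19q (5.204% against 4.64%, 0.17), 6p (0.15) and 15q (10.8% against 9.97%, 0.12). Balanced contact was lower on 22 of 39 arms, where 45.9% of all values were, with a median of -0.11. That median was -0.20 over 10 to 20 Mb, -0.039 over 20 to 50 Mb, -0.040 with every separation weighted equally and -0.034 after division by the arm's balanced total.

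The median near 0 at 4 d held opposite values within the window. On the 23 arms the ratio at 4 d was -0.12 at 10 to 20, -0.020 at 20 to 30, 0.13 at 30 to 40 and 0.34 at 40 to 50 Mb, with 1, 10, 20 and 23 arms above 0. It was 0.63 over 50 Mb. At 40 to 50 Mb it ranged from 0.11 on 18q to 0.61 on 7p. The slope over the window was -0.835 in knockout and -1.07 in DNMT1-AID cells, shallower in the knockout on all 25 long arms.

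At 10 d the knockout lay lower, with a median log2 ratio of -0.13 (SD 0.11), 25 arms lower and 1 higher, where 18.5% and 17.8% of all values were. The median was -0.20 over 10 to 20 Mb and -0.052 over 20 to 50 Mb. The arms 5p (11.29% against 14.4%, -0.35), 10p (8.22% against 10.3%, -0.33) and 9p (10.5% against 12.7%, -0.28) were lowest. The arms 19q (6.51% against 6.06%, 0.10), 19p (3.22% against 3.02%, 0.095) and 15q (13.1% against 12.4%, 0.076) were highest. Balanced contact on 19p was 142 against 122 per 1000000 bin pairs. These values rest on 27217 valid bin pairs in knockout and 33870 in DNMT1-AID cells, so they cover unlike sets of bins. The 4 steps had medians of -0.18, -0.083, 0.047 and 0.24, and 0.52 over 50 Mb. Balanced contact was lower on 28 arms and higher on 1, where 31.9% and 14.1% of all values were, with a median of -0.20. That median was -0.11 over 20 to 50 Mb and -0.094 with every separation weighted equally.

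The lines were then taken as pairs by time, with the log2 of each library's own median arm share. Knockout minus DNMT1-AID was -0.25 untreated, -0.074 at 4 d and -0.11 at 10 d (mean -0.15, SD 0.095). All 3 pairs were lower by this measure, in which the median arm can differ between libraries. Over matched arms the median at 4 d was -0.032, and its direction is not settled. An exact two-sided permutation test of the signs gave p = 0.25, the smallest value that 3 pairs allow. The pairs are treatment times of the same lines, not replicates of the knockout. For balanced contact the differences were -0.37, -0.17 and -0.20 (p = 0.25 in the same exact permutation test).

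The lines also differed in their response to 4 d of auxin. The change from untreated was 0.037 in knockout and -0.21 in DNMT1-AID cells (medians), and knockout minus DNMT1-AID had a median over arms of 0.25 (SD 0.067), positive on 39 of 39 arms. It was smallest on 5q (0.18) and largest on 19q (0.44). The median changes at 4 d were also apart over 50 Mb, at 0.24 in knockout and -0.28 in DNMT1-AID cells. They were -0.0028 and 0.060 at 0.1 to 1 Mb, and -0.026 and -0.033 at 1 to 10 Mb. At 10 d the changes were 0.20 and 0.019, and the difference had a median of 0.17 (SD 0.064), again positive on 39 arms and largest on 19q (0.38). With 1 library per group, this difference was not tested, and the untreated libraries enter both times. All arms come from the same libraries, so the counts of arms are a description and no support. No share over all separations was computed for these counts.

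Contact between chromosomes was then set beside the change of each arm. The trans share of a chromosome is the share of its contact ends that lead to another chromosome. Contacts within a chromosome enter it only from 100 kb on, so it is higher than a share of all contacts would be. It was higher on every autosome at 10 d in DNMT1-AID cells (log2 ratios of 0.18 to 0.34) and in knockout cells (0.14 to 0.27), and higher in untreated knockout than in DNMT1-AID cells (0.16 to 0.29). On chromosome 19 it was 34.5%, 35.2% and 39.8% in knockout cells untreated, at 4 d and at 10 d. In DNMT1-AID cells it was 29.997%, 29.983% and 36.9% at these times and 32.8% after washout. On chromosome 4 the values were 20.6%, 19.7% and 24.3% in knockout cells, and 17.2%, 16.6%, 21.7% and, after washout, 18.7% in DNMT1-AID cells.

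The rho of an arm's share change with the log2 trans ratio of its chromosome was 0.14 at 4 d and 0.11 at 10 d in DNMT1-AID cells. In knockout cells it was -0.17 at 4 d and -0.28 at 10 d. For knockout over DNMT1-AID cells it was 0.033 untreated and -0.37 at 10 d. Between 10 d and 4 d it was -0.50 in DNMT1-AID and -0.64 in knockout cells. With balanced values for both quantities, these 2 were -0.14 and -0.45, and that for knockout over DNMT1-AID cells at 10 d was -0.35. The value at 10 d in DNMT1-AID cells turned to -0.052 with the trans share taken from balanced sums, and that for the untreated lines to -0.15 over the arms of at least 50 Mb. Arms of a chromosome share 1 trans value, so the 39 points are not independent.

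**Figure D5:**
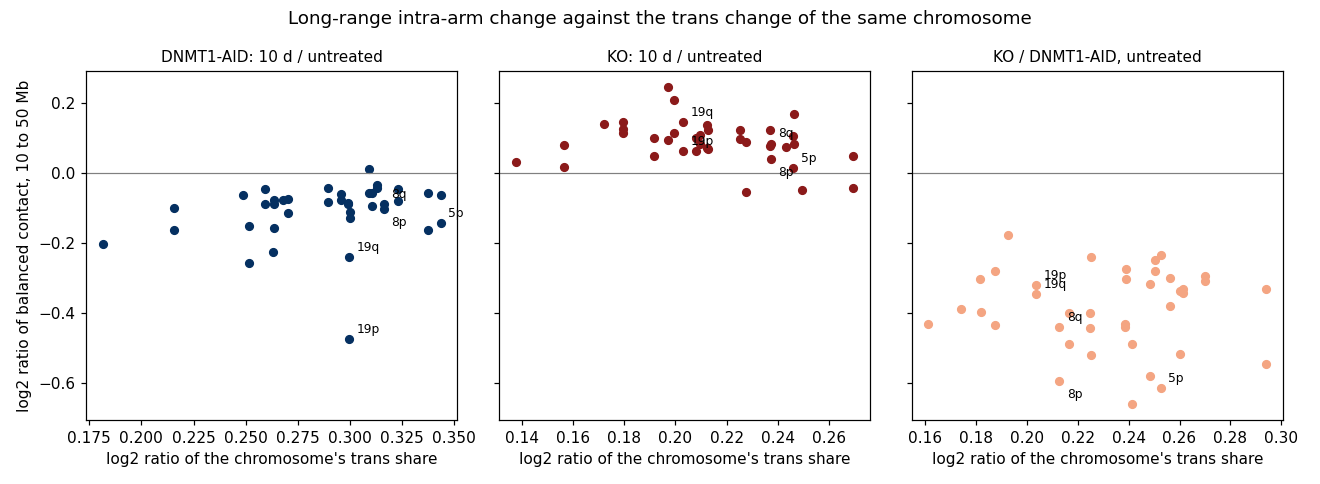
Log2 ratio of balanced contact at 10 to 50 Mb (vertical) against the log2 ratio of the trans share of the same chromosome (horizontal), with 1 point per arm for 39 arms in 3 comparisons. All points lie right of 0, while the vertical values are mostly below 0 for DNMT1-AID at 10 d, mostly above 0 for knockout at 10 d and all below 0 for untreated knockout over DNMT1-AID cells.

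Contact across the centromere, between the arms of a chromosome at the same 10 to 50 Mb, gave a second long-range readout. Pooled balanced inter-arm contact per 1000000 bin pairs was 67.9, 65.9 and 63.7 in knockout cells untreated, at 4 d and at 10 d. In DNMT1-AID cells it was 84.9, 74.5 and 74.9 at these times and 86.2 after washout. Pooled intra-arm contact was 97.5, 101 and 105 in knockout cells and 124, 110.007, 118 and, after washout, 123 in DNMT1-AID cells. At 4 d in DNMT1-AID cells both were lower (log2 ratios of -0.19 inter-arm and -0.17 intra-arm). At 10 d in knockout cells they ran opposite ways (-0.092 and 0.10).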

How the data were processed

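Libraries came from an Arima Hi-C kit with paired-end sequencing, per the labels' protocols. The submitters' processing notes name BWA and the hg38 build. The BWA version, pair filters and balancing program were not given in the sources used. Per the file headers, the deposited tables list, by arm and by 50 kb step of separation, the raw contact count, the balanced signal (matrix-balanced by the authors) and the valid bin pairs. Balanced totals equal the number of balanced bins (53173 to 53384), so libraries are on 1 scale. Contacts closer than 100 kb are not in the tables.

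Bin distances 200 to 999 of autosomal arms were summed per arm and library. Arms needed at least 1000 counts in every library, which all 39 had. Protein-coding genes (19071 in these arms) came from RefSeq's GRCh38.p14 table, the assembly of hg38, placed by midpoint and divided by valid length. Of the valid length of an arm, 53.2% to 100% lay in clustered bins, except 13q, which had none in the values used.

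Arms were named by rule: the 3 highest and 3 lowest share ratios of each comparison, plus 19p, 19q, 4q, 13q, 8p, 8q, 1p, 18p and 2q. The arm 1q was named outside this rule, beside 1p. The members, lists and tests were chosen with earlier results of these data known. Samples may differ by culture or technically, and intervals cover counting error only. The share calculation was tested on simulated counts with known changes put into the window. The other measures had no such test. Python 3.11.15, pandas 2.3.3, numpy 2.4.6 and scipy 1.17.1 were used. Windows, denominators, arm sets and pooling were varied, and the window of 10 to 20 Mb was added after seeing the data.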

Additional observations from a re-analysis of the deposited data

Results flagged for a closer look

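The change of an arm's share at 10 to 50 Mb after 4 d of auxin, knockout minus DNMT1-AID, had a median over arms of 0.25 on the log2 scale. It stood out because the share was lower in DNMT1-AID cells (median -0.21). Over the window as a whole it differed little in knockout cells (median 0.037, SD over arms 0.076). All 39 arms were lower past 0.1 in DNMT1-AID cells, where 45.2% of all values were. In knockout cells 4 arms were higher and 3 lower past 0.1, where 15.6% and 3.7% of all values were. The difference was not tested, since each group held 1 library. Groups of 1 library allow no check for a library that stands apart.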

How the results depend on the processing

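Each comparison's median log2 ratio was recomputed under other windows, denominators, arm sets and pooling, and the spread used to judge a shift was the SD over arms, since no replicates exist. Of these values, 110 for the share and 97 for balanced contact kept their direction within that spread, 8 and 9 shifted by more, and 3 and 4 turned direction. No fit with a replicate block could be made, since the labels give no replicate numbers. Only the 3 shared times were taken as pairs, where pooled shares gave a mean of -0.13 in place of -0.15.

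With the share taken over contacts from 1 Mb on, the medians were -0.00049 for DNMT1-AID at 10 d over untreated, 0.13 for 10 d over 4 d, 0.050 for knockout at 10 d over untreated, 0.012 for knockout at 10 d over 4 d, -0.18 for untreated knockout over DNMT1-AID, and 0.0034 for knockout over DNMT1-AID at 4 d. In the window of 20 to 50 Mb the share gave 0.054 for washout over untreated, 0.32 for DNMT1-AID at 10 d over 4 d, 0.30 for knockout at 10 d over untreated and 0.039 for knockout over DNMT1-AID at 4 d. Balanced contact there gave 0.0037 for washout over untreated, 0.19 for DNMT1-AID at 10 d over 4 d and 0.18 for knockout at 10 d over untreated. In the window of 10 to 20 Mb, chosen after seeing the data, the share of knockout at 10 d over untreated was 0.11. Balanced contact there was 0.010 in that comparison, 0.036 for DNMT1-AID at 10 d over 4 d and -0.018 for knockout at 10 d over 4 d.

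Divided by the arm's balanced total, balanced contact gave 0.0072 for DNMT1-AID at 10 d and 0.020 for washout over untreated, 0.22 for DNMT1-AID at 10 d over 4 d, and for knockout at 10 d 0.19 over untreated and 0.15 over 4 d. Equal weight of each separation gave 0.17 for DNMT1-AID at 10 d over 4 d and 0.16 for knockout at 10 d over untreated. Over the 25 arms of at least 50 Mb, rho was 0.34 with trans share for DNMT1-AID at 4 d, 0.20 with gene density for DNMT1-AID at 10 d, and with arm length -0.17 for knockout at 4 d, -0.67 for knockout at 10 d and 0.33 for untreated knockout over DNMT1-AID. The cause of these shifts was not tested. The medians for DNMT1-AID at 4 d over untreated stayed between -0.27 and -0.12 for the share and between -0.24 and -0.12 for balanced contact under the alternatives run. Leaving out chromosome 8 or chromosome 19 turned no median. Depth limits mainly the washout library and the arms 18p and 17p.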
